A study of Mus musculus with 10 samples.

Results

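Lipid droplet coat and lipolysis genes (Plin2, Plin4, Plin5, Cidec, Cideb, Fitm2, Pnpla2, Abhd5, Mgll and G0s2) were followed across the 10 liver libraries of the study, and make up 10 of the 19764 genes in the count table. They were taken by their symbols, and all 10 passed the filter on low counts. Each had a lower estimated level in GRMAC than in GRflox liver, but none passed the edgeR quasi-likelihood test over all genes, and their values overlapped between the genotypes. Within genotypes, Plin2, Cidec, Fitm2, Pnpla2 and Plin5 tended to be high or low in the same libraries. Of all 45 pairs, 6 among these genes passed by Pearson's r, and 3 of them also by Spearman's rho. No pair with Plin4, Abhd5, Cideb, Mgll or G0s2 passed. Genes outside the set followed some members as closely, and the share of passing pairs among other genes was not tested.

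Both groups were female mice with a floxed glucocorticoid receptor gene, fasted for 8 h from ZT12, the onset of the active phase. GRMAC mice (GRflox; LysM-Cre+/-) also carried 1 copy of LysM-Cre, a driver that works in myeloid cells and so in granulocytes as well as macrophages, whereas the GRflox littermates had no Cre. There were 5 libraries of polyadenylated whole-liver RNA per genotype, no fed mice and no Cre-only controls, so an effect of LysM-Cre itself and loss of the receptor cannot be told apart. The labels number the libraries without stating that each is a separate animal, so the p-values measure the spread between these samples. Livers named in the text are these libraries. The age of the mice is not given in the sources used here.

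Library totals were 25697931 to 27692528 counts in GRflox and 23258884 to 26116916 in GRMAC. The 15 hepatocyte markers summed to between 156265 and 174865 CPM (counts scaled to a common library size with TMM factors) among controls and between 160835 and 178669 CPM among GRMAC livers. Nr3c1, the glucocorticoid receptor gene, lay between 63.8 and 81.2 CPM among controls and between 74.7 and 94.0 CPM among GRMAC livers; whole-liver RNA counted per gene does not show the deletion in myeloid cells. Cd163, a receptor of resident macrophages, spanned 21.6 to 40.3 CPM among controls and 2.43 to 3.77 CPM among GRMAC livers, with every library on the side of its label.

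Lipid droplets are stores of triglyceride and cholesteryl ester under a single layer of phospholipid. Perilipins coat that surface, CIDE proteins enlarge droplets or help load lipid onto lipoproteins, and FIT proteins help droplets form at the endoplasmic reticulum. Stored triglyceride is broken down in steps by adipose triglyceride lipase (Pnpla2), a diglyceride lipase and monoglyceride lipase (Mgll), with Abhd5 as the activator and G0s2 as the inhibitor of the first step. In fasting, fatty acids reach the liver from adipose tissue and many droplet genes respond to the fatty acid receptor PPARA.

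Transcript levels differed widely within the set when counted per kb of transcript. Plin2 was the most abundant, at 937 ± 180 CPM per kb in GRflox (SD, n = 5), followed by G0s2 at 281 ± 89.2, Plin5 at 167 ± 26.7, Mgll at 156 ± 11.9 and Pnpla2 at 127 ± 25.3 CPM per kb. Cidec was at 63.1 ± 29.4, Cideb at 45.6 ± 2.21, Fitm2 at 27.7 ± 2.52, Plin4 at 25.7 ± 2.45 and Abhd5 at 7.80 ± 0.333 CPM per kb. Neighbours in this order that were apart by less than the larger of their SDs were Plin5 and Mgll, Cidec and Cideb, and Fitm2 and Plin4. In GRMAC Plin2 (706 ± 241 CPM per kb) was again the top of the order and Abhd5 (7.03 ± 0.171) the bottom. G0s2 (221 ± 192) was second by its mean, but not in every library. It was below Plin5 in GRMAC 1 (59.0 and 147) and GRMAC 3 (91.5 and 129), and above Plin5 in GRMAC 2, 4 and 5. Among controls, G0s2 was below Plin5 in GRflox 3 (138 and 164) and above it in GRflox 1, 2, 4 and 5.

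The 250 bases before the annotated start are shown for Plin2, Cidec, Plin5 and Plin4 (RefSeq, GRCm38.p6). Plin2, Cidec and Plin5 were each correlated with another of the 10 genes. Plin4, which lies next to Plin5, passed with none. The Plin4 window lies before a RefSeq start at 56109782, whereas the count table places the start of Plin4 at 56109802. Capitals mark the letters AGGTCA on either strand (TGACCT on the other), the half-site that many nuclear receptors read; none is present in the Plin4 and Cidec windows.
Plin2 (chr4:86670060-86670309, minus strand): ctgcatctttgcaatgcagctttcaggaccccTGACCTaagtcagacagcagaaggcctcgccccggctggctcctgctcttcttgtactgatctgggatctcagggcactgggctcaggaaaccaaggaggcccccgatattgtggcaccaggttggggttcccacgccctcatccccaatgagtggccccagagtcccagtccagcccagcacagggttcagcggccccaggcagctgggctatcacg
Cidec (chr6:113435761-113436010, minus strand): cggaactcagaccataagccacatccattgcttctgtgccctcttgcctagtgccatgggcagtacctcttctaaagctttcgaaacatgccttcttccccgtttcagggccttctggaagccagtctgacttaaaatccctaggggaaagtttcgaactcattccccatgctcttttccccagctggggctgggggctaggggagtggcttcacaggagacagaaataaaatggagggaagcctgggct
Plin5 (chr17:56117549-56117798, minus strand): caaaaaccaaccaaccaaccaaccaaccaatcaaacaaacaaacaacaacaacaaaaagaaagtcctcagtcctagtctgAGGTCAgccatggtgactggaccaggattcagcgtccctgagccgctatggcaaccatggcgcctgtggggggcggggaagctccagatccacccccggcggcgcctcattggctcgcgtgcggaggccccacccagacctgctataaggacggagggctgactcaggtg
Plin4 (chr17:56109783-56110032, minus strand): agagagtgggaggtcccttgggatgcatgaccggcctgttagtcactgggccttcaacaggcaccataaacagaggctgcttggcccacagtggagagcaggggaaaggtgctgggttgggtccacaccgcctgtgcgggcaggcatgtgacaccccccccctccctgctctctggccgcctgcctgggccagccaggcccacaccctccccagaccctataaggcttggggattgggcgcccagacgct

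All 10 genes had promoter windows in the RefSeq table, 13 windows in all because Plin5, Cidec and Mgll have a second start. AGGTCA was present in 3 of them (Plin2, Plin5 and Abhd5) and in 14.0% of all 32851 windows of this length. The exact direct repeat of that half-site with a single base between (DR1, the form PPARA binds) was in 0 of the 13 and in 0.0335% of all windows. The exact palindromic glucocorticoid response element was in 0 of the 13 and in 0.00913% of all. Both strands were searched, and every DR1 match is also an AGGTCA match. A match or its absence describes the letters of a short window only.

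Plin2 (NM_007408, mm10 chromosome 4, 86656565 to 86670059, minus strand) encodes the main perilipin of hepatocyte droplets. Its level was 2030, 1623, 1998, 1238 and 1960 CPM in GRflox 1 to 5 and 1276, 1266, 828, 2077 and 1217 CPM in GRMAC 1 to 5. GRflox 4 lay below the other controls and as low as most GRMAC livers. In GRMAC, GRMAC 4 was the highest of all 10 libraries and GRMAC 3 the lowest, with the other 3 close together. Between genotypes the log2 fold change was −0.41 ± 0.23 (SE; 95% interval −0.91 to 0.09), with an adjusted p of 0.402 (edgeR). It was −0.27 without GRMAC 3 and −0.63 without GRMAC 4. Fewer cells of a type and less RNA per cell cannot be told apart in such whole-liver samples.

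Plin5 (NM_025874, chromosome 17, 56111601 to 56117548), the perilipin of oxidative tissues that ties droplets to mitochondria, had levels of 374, 307, 325, 259 and 390 CPM in GRflox, and 293, 199, 257, 346 and 183 CPM in the GRMAC livers. As for Plin2, GRflox 4 was the lowest control and GRMAC 4 the highest GRMAC library. Its fold change on the log2 scale was −0.37 ± 0.18 (95% interval −0.76 to 0.02; adjusted p = 0.327, edgeR).

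Plin4 (NM_020568, chromosome 17, 56100591 to 56109802), a perilipin best known from adipocytes and muscle, had another order of libraries. It measured 146, 131, 138, 163 and 162 CPM in GRflox, and 128, 107, 159, 99.9 and 91.8 CPM in the GRMAC livers. GRflox 4 was here the highest control, and GRMAC 3, the lowest liver for Plin2, was the highest GRMAC library for Plin4. For Plin4 the difference was −0.34 ± 0.14 on the log2 scale (95% interval −0.63 to −0.04), at an unadjusted p of 0.0299 and an adjusted p of 0.247 (edgeR). Plin4 and Plin5 lie on the same strand with 1798 bases between them, and Plin4 shares 14 bases with Hdgfrp2, so a few of its reads may be that gene's.

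**Figure D1:**
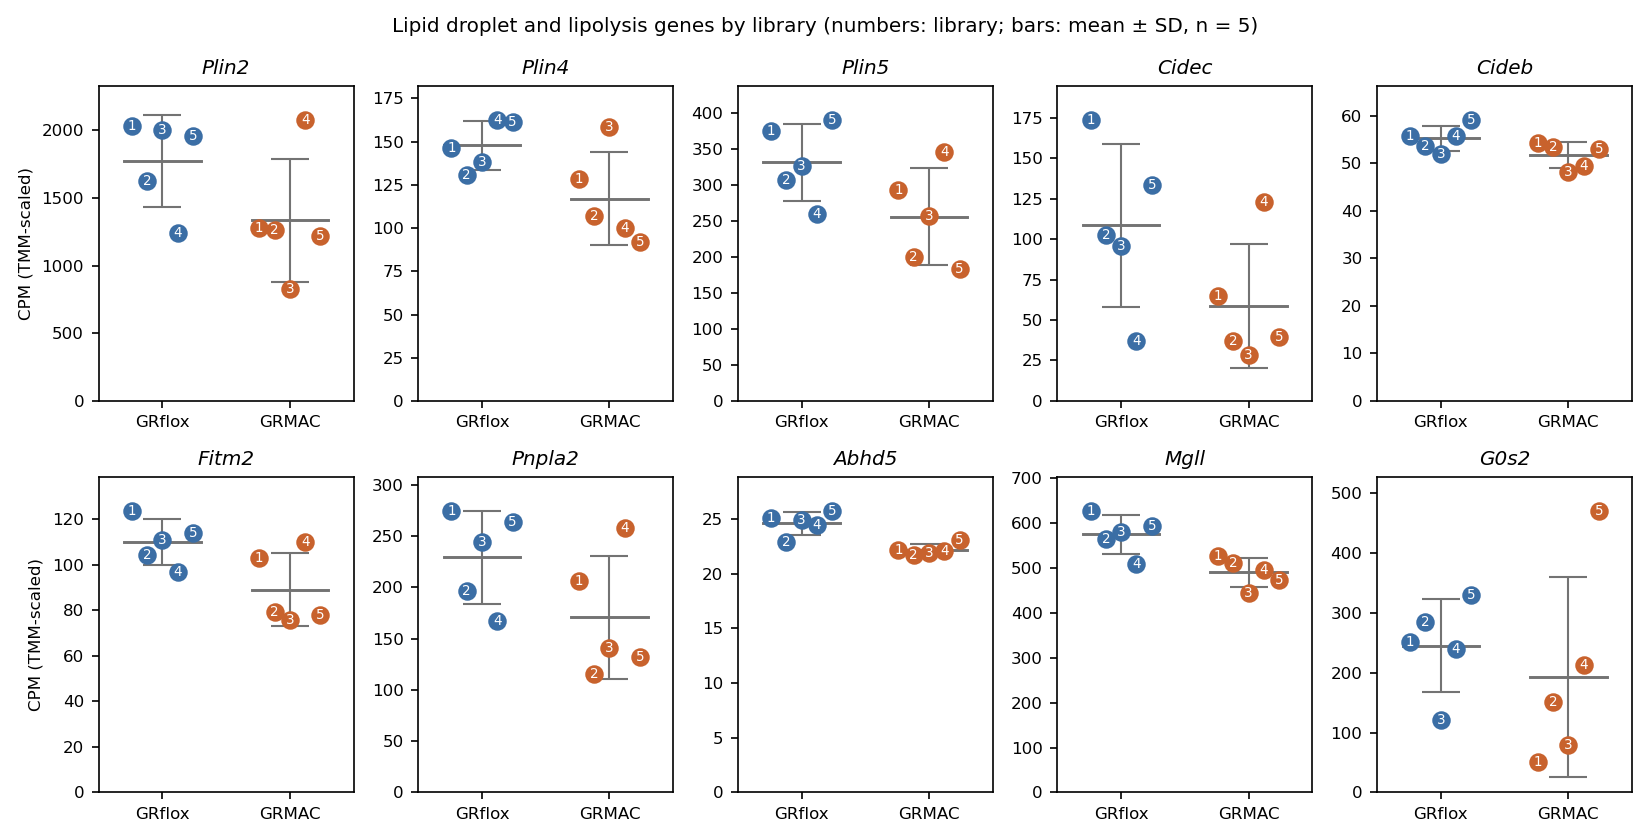
Level of each of the 10 genes in each library in TMM-scaled CPM (vertical axes, starting at 0, a different range per gene); numbered points are libraries, bars the mean ± SD of 5. GRflox 4 is the lowest control and GRMAC 4 the highest GRMAC liver in Plin2, Cidec, Fitm2, Plin5 and Pnpla2, and GRMAC 5 stands far above the rest in G0s2.

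Cidec (NM_001301295, chromosome 6, 113424634 to 113435760) encodes FSP27, which fuses droplets into larger ones. It had the largest estimated difference and, after G0s2, the largest spread of the set. The levels were 174, 103, 95.6, 36.9 and 134 CPM in GRflox, and 65.0, 37.0, 28.4, 123 and 39.8 CPM in the GRMAC livers. Except for GRflox 4 and GRMAC 4, every control was above every GRMAC liver. The estimate for Cidec was a log2 fold change of −0.89 ± 0.51 (95% interval −2.06 to 0.28; adjusted p = 0.435, edgeR). One count per gene does not separate the transcripts of its alternative starts.

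Cideb (NM_009894, chromosome 14, 55754055 to 55758424), the family member that serves VLDL loading in hepatocytes, was among the steadiest. The controls lay between 52.0 and 59.2 CPM (median 55.7) and the GRMAC livers between 48.3 and 54.4 CPM (median 53.0), with overlap. Cideb differed by a log2 fold change of −0.10 ± 0.05 (95% interval −0.21 to 0.02; adjusted p = 0.402, edgeR), so the interval reaches no further than a fall of 0.21 on the log2 scale. Cideb shares 1580 bases with Nop9 on the opposite strand, and the strand setting of the counting is not given in the sources used here, so reads of the 2 genes may be mixed.

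Fitm2 (NM_173397, chromosome 2, 163468703 to 163472629), which helps droplets bud from the endoplasmic reticulum, had 123, 104, 111, 96.9 and 114 CPM in GRflox, and 103, 79.1, 75.8, 110 and 77.7 CPM in the GRMAC livers. It again had GRflox 4 lowest and GRMAC 4 highest within their genotypes, on a smaller scale than Cidec. Fitm2 had a log2 fold change of −0.30 ± 0.11 (95% interval −0.54 to −0.06; unadjusted p = 0.0167, adjusted p = 0.199, edgeR).

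Pnpla2 (NM_025802, chromosome 7, 141455188 to 141460743), which encodes adipose triglyceride lipase, read 274, 196, 244, 167 and 263 CPM in GRflox. In GRMAC it was at 206, 116, 141, 258 and 132 CPM. The library order was close to that of Fitm2, with GRMAC 4 in the range of the highest controls. The log2 fold change was −0.43 ± 0.24 (95% interval −0.96 to 0.11; adjusted p = 0.411, edgeR).

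Abhd5 (NM_026179, chromosome 9, 122351616 to 122381523), the activator of that lipase, was nearly constant. Its levels were 25.1, 22.9, 24.9, 24.5 and 25.7 CPM in GRflox, and 22.1, 21.7, 21.9, 22.1 and 23.1 CPM in the GRMAC livers. Only GRMAC 5 and GRflox 2 crossed, by less than 1 CPM. The log2 fold change was −0.15 ± 0.05 (95% interval −0.27 to −0.03; unadjusted p = 0.0159, adjusted p = 0.198, edgeR), a small difference measured with little spread.

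Mgll (NM_011844, chromosome 6, 88724412 to 88828360), which encodes monoglyceride lipase, had the lowest p of the set. Its levels were 627, 565, 581, 508 and 594 CPM in GRflox, and 527, 512, 444, 496 and 474 CPM in the GRMAC livers. GRflox 4 was below 2 GRMAC livers, and the other 4 controls were above all GRMAC livers. The log2 fold change was −0.23 ± 0.07 (95% interval −0.38 to −0.08), with an unadjusted p of 0.00636 and an adjusted p of 0.153 (edgeR). In the authors' deposited table Mgll was the only member called, at a log2 fold change of −0.23 and an adjusted p of 0.0446.

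G0s2 (NM_008059, chromosome 1, 193272160 to 193273188), the inhibitor of the lipase, varied most. Its levels were 251, 284, 121, 240 and 329 CPM in GRflox, and 51.4, 151, 79.7, 213 and 469 CPM in the GRMAC livers. The highest GRMAC liver held 9.14 times the level of the lowest, against 2.73 times among controls, and the GRMAC values enclosed the GRflox range on both sides. The log2 fold change was −0.35 ± 0.58 (95% interval −1.68 to 0.99; adjusted p = 0.814, edgeR). It was −0.99 without GRMAC 5 and −0.10 without GRMAC 1, so single libraries set its size.

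Read against all genes, the count of members called was 0 of 10 with edgeR, where 0.175% of 12558 tested genes passed in either direction and 0.0557% as lower. At an unadjusted p under 0.05, 4 of 10 were lower (Mgll, Abhd5, Fitm2 and Plin4), against 7.75% of tested genes that were lower at that level. All 10 estimates were negative, against 49.8% of tested genes, and their median was −0.34 against 0.00 for all tested genes. Several of the genes varied together, so 10 negative values are not 10 separate observations. None of the 10 had genotypes that did not overlap (4.05% of tested genes had, 2.01% with GRMAC lower). Of the 10, Mgll alone passed in the authors' deposited table, where 3.33% of genes with an adjusted p passed and 1.49% were lower. A DESeq2 refit to the same counts likewise passed Mgll alone (adjusted p = 0.0445), beside 3.35% of genes in either direction and 1.5% lower.

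**Figure D2:**
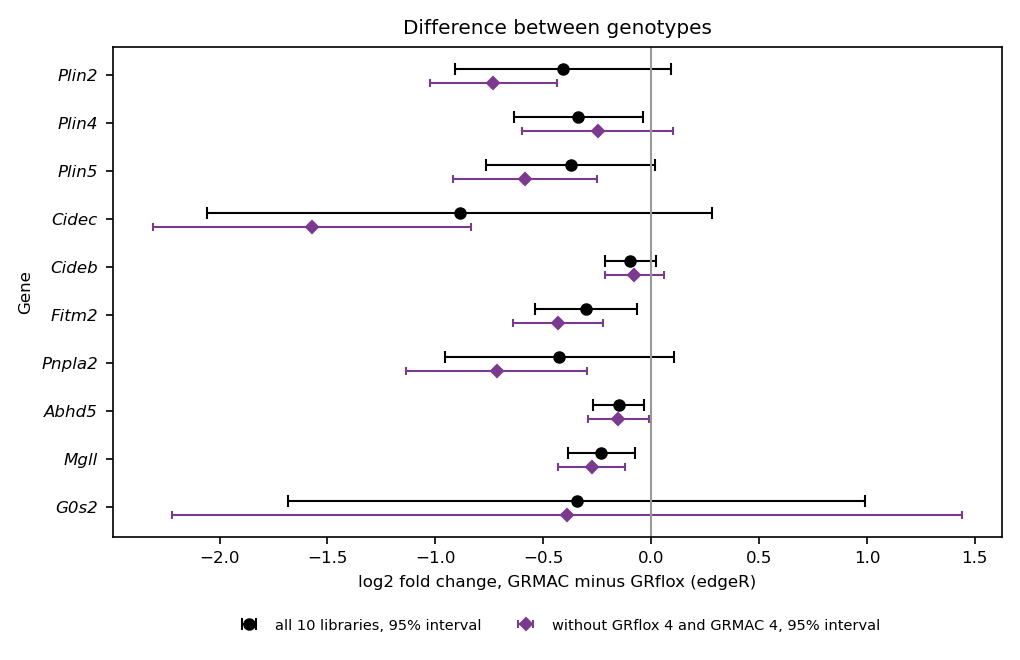
Difference between genotypes for each gene (horizontal axis, log2 fold change, GRMAC minus GRflox; circles with 95% intervals from all 10 libraries, diamonds with 95% intervals without GRflox 4 and GRMAC 4). All 10 estimates lie below 0; leaving out the 2 libraries moved Plin2 from −0.41 to −0.73 and Cidec from −0.89 to −1.57, and left Abhd5 at −0.15.

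Several libraries lay at the edge of their genotype in many of these genes, among them those numbered 4. GRflox 4 was the lowest control for 6 members (Plin2, Plin5, Cidec, Fitm2, Pnpla2 and Mgll), and GRMAC 4 was the highest GRMAC library for 5 (Plin2, Plin5, Cidec, Fitm2 and Pnpla2). At the opposite edges, GRflox 1 was the highest control for 5 (Plin2, Cidec, Fitm2, Pnpla2 and Mgll). GRMAC 3 was the lowest GRMAC library for 5 (Plin2, Cidec, Cideb, Fitm2 and Mgll). Cd163 read 21.6 CPM for GRflox 4 but 2.92 CPM for GRMAC 4, on the side of their labels. In a fit that drops both, added once these values were known, Plin2 fell (log2 fold change −0.73 ± 0.13, adjusted p = 0.0494, edgeR), beside 0.541% of genes called in either direction and 0.302% lower. The other 9 did not pass. Fitm2 had −0.43 (adjusted p = 0.0659), Cidec −1.57 (adjusted p = 0.0796), Mgll −0.28 (adjusted p = 0.0864) and Plin5 −0.58 (adjusted p = 0.0943). With those 2 libraries absent, the GRMAC values of Plin2, Plin5, Cidec, Fitm2 and Mgll all lay below the lowest control, as did 5.64% of tested genes. Choosing these libraries by the values of these genes favours a larger difference, so the fit adds no evidence for one.

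Shared variation was measured on log2 CPM after subtracting each genotype's mean, over 10 libraries, for all 45 pairs of the 10 genes, with exact permutation of libraries within genotype and Benjamini-Hochberg adjustment over the 45. Cidec and Fitm2 followed each other most evenly, with Pearson's r = 0.90 (exact permutation adjusted p = 0.00625) and Spearman's rho = 0.89 (adjusted p = 0.0219), and r = 0.91 without GRflox 4 and GRMAC 4. Plin2 and Fitm2 gave r = 0.81 (exact permutation adjusted p = 0.00625) and rho = 0.85 (adjusted p = 0.00938), and r = 0.62 without GRMAC 3 and GRMAC 4. Cidec and Pnpla2 gave r = 0.88 (exact permutation adjusted p = 0.0177) and rho = 0.89 (adjusted p = 0.0354), and r = 0.74 without GRflox 4 and GRMAC 4. These 3 pairs, of the fusion factor, the budding factor, the main coat and the lipase, passed by both measures.

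Another 3 pairs passed by Pearson's r alone. They were Fitm2 with Pnpla2 (r = 0.95, exact permutation adjusted p = 0.0125; rho = 0.88, adjusted p = 0.0885), Plin5 with Pnpla2 (r = 0.93, exact permutation adjusted p = 0.0125; rho = 0.88, adjusted p = 0.0544) and Plin2 with Cidec (r = 0.89, exact permutation adjusted p = 0.0177; rho = 0.84, adjusted p = 0.0544). With the 2 libraries farthest from the median of the first gene left out, these were 0.84, 0.94 and 0.87. The lipase transcript was thus high in livers where the Plin5, Fitm2 and Cidec transcripts were high. No such relation passed for its activator or inhibitor, and for the activator Abhd5 counting error takes up the spread. Pnpla2 with Abhd5 gave r = 0.27 (exact permutation p = 0.414, adjusted p = 0.809; rho = 0.38, p = 0.272). Pnpla2 with G0s2 gave r = −0.17 (exact permutation p = 0.706, adjusted p = 0.925; rho = 0.03, p = 0.951).

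Plin4 and Plin5, the neighbouring genes, gave r = 0.22 (exact permutation p = 0.639, adjusted p = 0.925; rho = 0.25, p = 0.549). Plin4 and Plin2 gave r = −0.60 (exact permutation p = 0.143, adjusted p = 0.407) with rho = −0.32 (p = 0.435), and −0.13 without GRMAC 3 and GRMAC 4, so this negative value rests on those livers. All 10 genes share the library scaling, which enters every pair. The share of pairs of other genes that would pass was not tested.

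**Figure D3:**
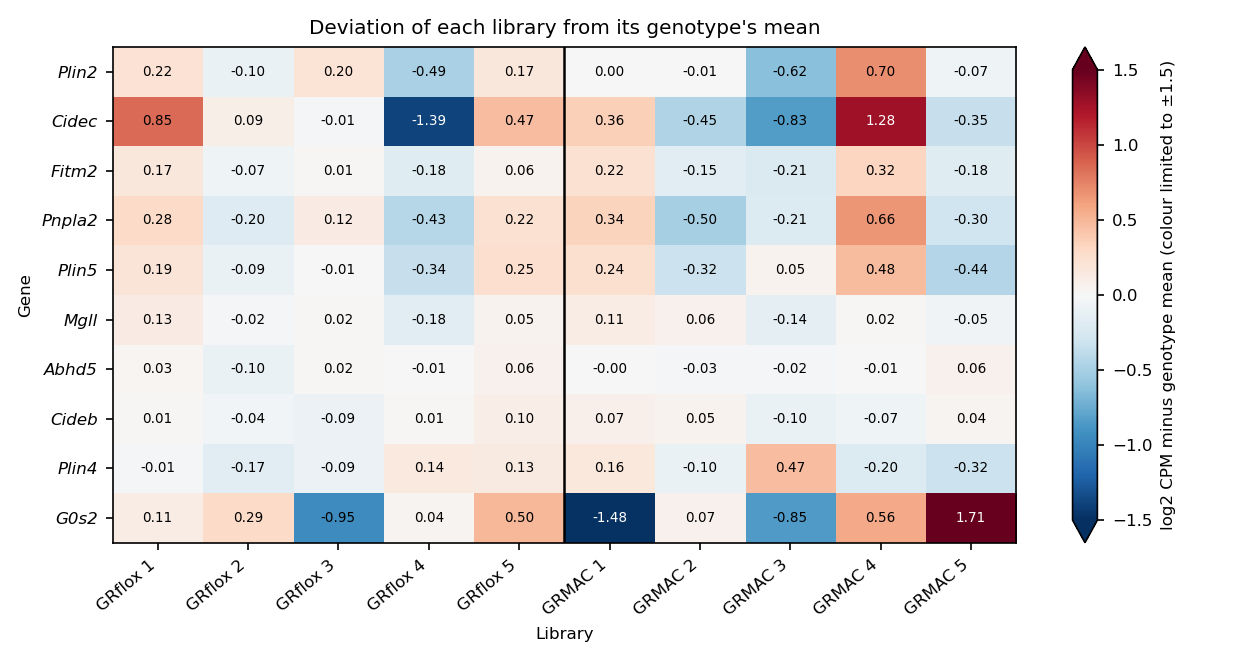
Log2 CPM of each gene (rows) in each library (columns) minus the mean of that library's genotype; red is above and blue below the mean, with the value printed in each cell. Plin2, Cidec, Fitm2, Pnpla2 and Plin5 are all below their mean in GRflox 4 and above it in GRMAC 4, whereas Plin4 has the opposite signs (0.14 and −0.20) and Abhd5 is near 0 in both.

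The size of this variation differed by gene. The SD of log2 CPM within genotypes was 0.96 for G0s2 and 0.84 for Cidec, above 99.6% and 99.3% of tested genes in rank. Pnpla2 and Plin2 had an SD of 0.40 each, ranks of 89.5% and 89.2%. At the other end, Abhd5 had 0.05 and Cideb 0.07, ranks of 1.60% and 8.67%, and Mgll 0.10, a rank of 25.6%. Among the lipolysis genes, the activator was thus nearly fixed and the inhibitor varied widely. Counting error of the size a Poisson count gives was 0.06 on the log2 scale for Abhd5 (514 to 697 counts), as large as its whole spread, and 0.04 for Cideb (1217 to 1604 counts), so depth limits what their variation and correlations can show. For the other 8 genes it was between 0.01 and 0.04, less than 0.15 of the spread.

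The balance of inhibitor and lipase transcripts was compared per kb of transcript in each library. The ratio of G0s2 to Pnpla2 was 1.90, 2.99, 1.02, 2.96 and 2.58 in GRflox and 0.515, 2.69, 1.17, 1.71 and 7.32 in GRMAC. GRflox 3 and GRMAC 3 were near parity, GRMAC 1 lay below it and GRMAC 5 was the highest. The ratio of Pnpla2 to Abhd5 was 19.1, 15, 17.2, 12 and 17.9 in GRflox and 16.3, 9.32, 11.3, 20.5 and 10.1 in GRMAC. Since Abhd5 hardly varied, this ratio followed Pnpla2, and the genotypes overlapped.

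**Figure D4:**
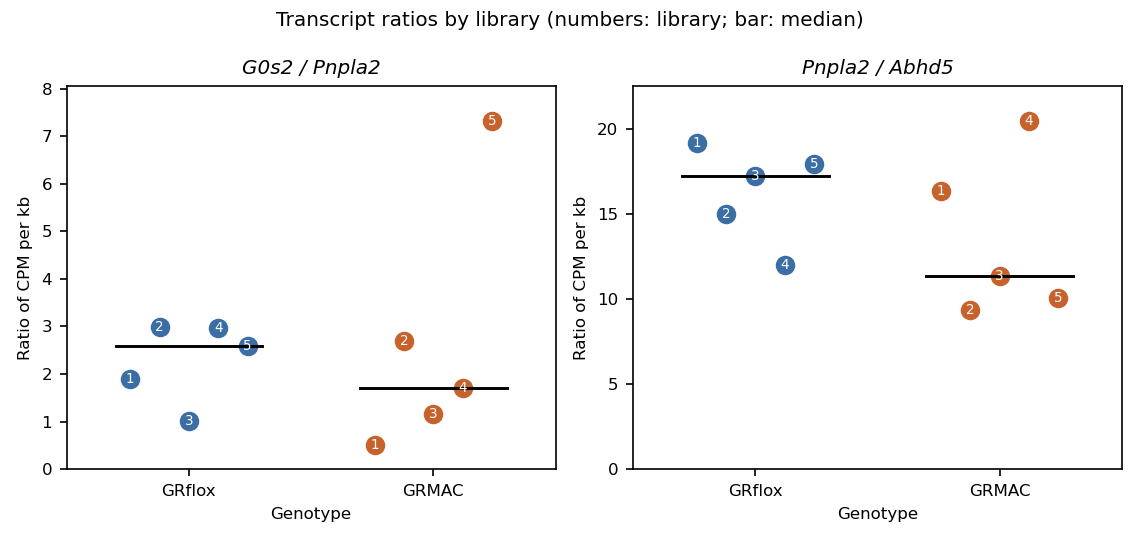
Ratio of transcript levels per kb in each library (numbered points, vertical axes starting at 0; horizontal bars are medians of 5) for inhibitor over lipase, left, and lipase over activator, right. The G0s2 to Pnpla2 ratio runs from 0.515 to 7.32 in GRMAC and from 1.02 to 2.99 in GRflox.

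Genes outside the set with the most similar course over the 10 libraries were found by Pearson's r of log2 CPM, given as a description. For Plin2 they were Chrna2 (0.98), which encodes a nicotinic receptor subunit, and the acyl-CoA thioesterase genes Acot2 (0.96) and Acot1 (0.95). For Cidec they were Crat (0.98), the carnitine acetyltransferase gene, Cgref1 (0.97) and Slc35c1 (0.97), a GDP-fucose transporter gene. Fitm2 was followed by Agpat3 (0.97), an acyltransferase of glycerolipid synthesis, Acad11 (0.96) and Mttp (0.95), which loads lipid onto apolipoprotein B. After centring by genotype these 9 values were 0.91 to 0.98.

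For G0s2 the nearest were Sik1 (0.96), a salt-inducible kinase gene induced by cAMP, Stac3 (0.95) and Rgs1 (0.94), a regulator of G protein signalling. Plin4 was nearest to Smarcd2 (0.95), Ppp1r16a (0.94) and Foxo1 (0.92), the insulin-restrained transcription factor of fasting. The remaining members had Asic5, Insig2 and Tmem41a (Plin5), Fem1a, Sec24d and Aass (Pnpla2), Pex19, Mapre3 and Ociad1 (Mgll), Armc6, Ficd and Smarcd3 (Abhd5) and Cdv3, Ddt and Rbfox3 (Cideb), with r from 0.89 to 0.96. After centring by genotype, the values for G0s2, Plin4 and the remaining members ran from 0.82 (Abhd5 with Smarcd3) to 0.98 (Plin5 with Asic5). No gene was shared between the sets of 3.

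Other genes of the pathway were read from related lists. Of all tested genes, 49.8% were negative and 7.75% were lower at an unadjusted p under 0.05 (edgeR). Of 21 tested genes for other droplet proteins, 0 passed with edgeR, 11 were negative, 3 were lower and 0 higher at an unadjusted p under 0.05, and the median was −0.01. Hsd17b11, a droplet-bound dehydrogenase gene, had the lowest p (515 ± 38.6 and 417 ± 16.1 CPM, log2 fold change −0.30 ± 0.07, adjusted p = 0.0649, edgeR), and was the only one called, as lower, in the authors' deposited table (adjusted p = 0.000425).

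Of 21 tested genes for other hydrolases of neutral lipids, 0 passed with edgeR, 12 were negative, 2 were lower and 2 higher at an unadjusted p under 0.05, and the median was −0.02. Abhd6, a monoglyceride hydrolase gene, had the lowest p (166 ± 8.27 and 135 ± 10.3 CPM, −0.30 ± 0.06, adjusted p = 0.0649, edgeR). The authors' deposited table called Abhd6 lower (adjusted p = 0.00151), and the carboxylesterase genes Ces3b (log2 fold change 0.60, adjusted p = 0.00173) and Ces2e (0.25, adjusted p = 0.0255), named after their values were seen, higher.

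Triglyceride synthesis had a median of −0.11 over 16 tested genes, of which 0 passed with edgeR, 10 were negative, and 6 were lower and 0 higher at an unadjusted p under 0.05. Agpat3 had the lowest p (410 ± 20.9 and 357 ± 30.5 CPM, −0.20 ± 0.07, adjusted p = 0.183, edgeR). PPARA targets outside the set had a median of −0.23 over 35 tested genes, all negative, of which 23 were lower and 0 higher at an unadjusted p under 0.05 and 8 did not overlap between genotypes. Of all tested genes, 7.75% were lower at that level, and 2.01% did not overlap with GRMAC lower. Whether the 35 genes varied together was not tested, so they are not taken as 35 separate observations. With edgeR 1 of the 35 was called lower, Angptl4, an inhibitor of lipoprotein lipase (336 to 447 and 245 to 305 CPM, −0.48 ± 0.08, adjusted p = 0.0432), beside 0.0557% of tested genes. The authors' deposited table called 10 of the 35 lower, beside 1.49% of genes with an adjusted p. The call of Angptl4 was lost in 8 of 10 fits that left out 1 library (all but those without GRflox 4 or GRMAC 5; adjusted p from 0.0308 to 0.106, edgeR), without robust estimation (0.0563) and with the correction for GC content and length (0.0646). Angptl4 did not overlap between genotypes, unlike the 10 droplet genes. Its within-genotype SD on the log2 scale was 0.14. That was above the SDs of Abhd5 (0.05), Cideb (0.07) and Mgll (0.10), and below those of the other members, such as Plin2 (0.40). The lists were chosen with results of these data known and are no independent support.

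**Figure D5:**
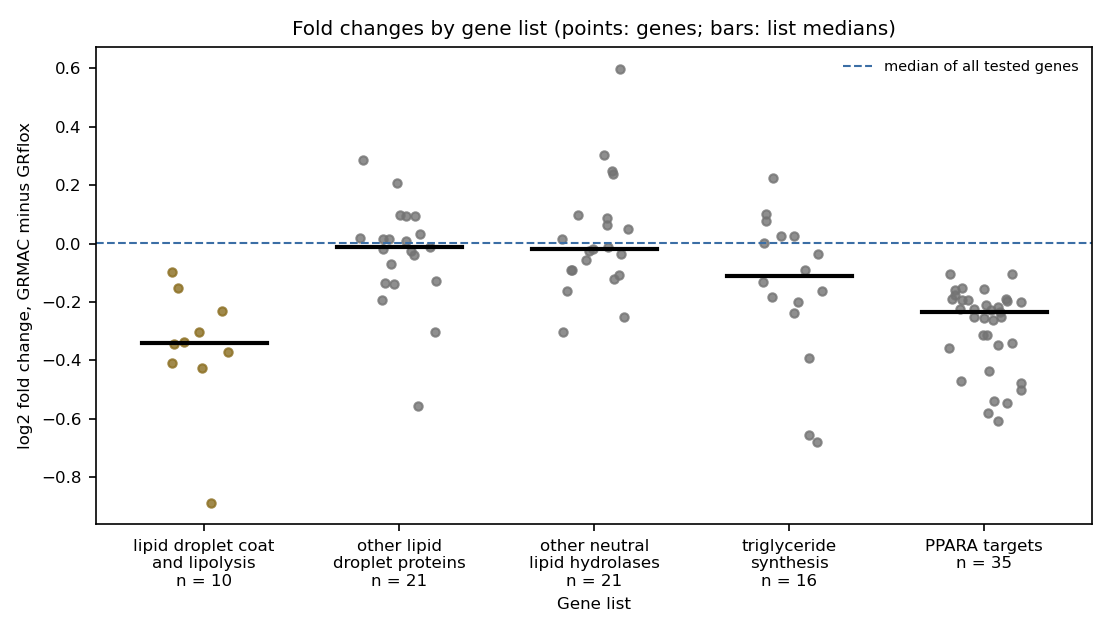
Log2 fold change of each tested gene (points; vertical axis, GRMAC minus GRflox) in the 10-gene set and in 4 related lists, with list medians as bars and the median of all tested genes as a dashed line. The set (median −0.34) and the PPARA targets (−0.23) lie wholly below 0, whereas other droplet proteins (−0.01) and other hydrolases (−0.02) spread to both sides.

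Markers of other cells that express these genes were measured beside them. Adipocytes hold much Plin4, Cidec, Pnpla2 and G0s2. Of their markers, some were near the floor of 3 counts: Adipoq had 0 to 6 counts, Plin1 0 to 5, Lep 0 to 1 and Cidea 0 to 2 in any library. Only Adrb3, Fabp4 and Pparg passed the filter on low counts, and their signs differed. Fabp4 was negative (−0.15 ± 0.15, adjusted p = 0.672, edgeR), whereas Pparg (0.27 ± 0.20, adjusted p = 0.526, edgeR) and Adrb3 were positive. The 9 adipocyte markers in the table summed to 13.5 to 15.6 CPM in GRflox, and 15.7 to 19.1 CPM in the GRMAC livers, without overlap. Adrb3, which is part of that sum, had the lowest p of the 3 tested (2.66 ± 0.595 and 5.44 ± 1.93 CPM, 1.03 ± 0.25, adjusted p = 0.0895, edgeR). It was called higher in the authors' deposited table (adjusted p = 0.00503). The 12 muscle markers summed to at most 1.36 CPM in any library. Only 1 of them was tested, Mylpf, at a low level (0.394 ± 0.0918 and 0.609 ± 0.132 CPM, 0.62 ± 0.27, adjusted p = 0.267, edgeR).

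Resident macrophages and stellate cells also carry droplets. The 15 Kupffer cell markers summed to 453 to 599 CPM in GRflox, and 519 to 627 CPM in the GRMAC livers, and Cd163 fell (−3.22 ± 0.19, adjusted p = 2.55e-05, edgeR) while the list's median was 0.11. The 11 stellate cell and fibroblast markers summed to 360 to 438 and 348 to 481 CPM (Colec11 0.20 ± 0.08, adjusted p = 0.24, edgeR), and the 12 sinusoidal endothelial markers to 368 to 413 and 287 to 460 CPM. Of these endothelial markers 6 were negative and 6 positive, with a median of 0.01, and Stab2 had the lowest p (0.23 ± 0.08, adjusted p = 0.204, edgeR). The 12 monocyte and neutrophil markers summed to 3.05 to 3.53 and 3.29 to 3.89 CPM; only 2 were tested, Ccr2 (0.62 ± 0.21, adjusted p = 0.178, edgeR) and Itgam (−0.52 ± 0.21, adjusted p = 0.231), with opposite signs. Of the 15 hepatocyte markers 5 were negative and 10 positive, with a median of 0.08. Fgb had the lowest p of them (0.37 ± 0.09, adjusted p = 0.0889, edgeR). The authors' deposited table called 3 hepatocyte markers higher, Fgb (adjusted p = 0.00561), Apob (0.00667) and Ahsg (0.00822), and the Kupffer cell marker Cd5l as well (0.0056); Apob, Ahsg and Cd5l are named after their values were seen. The part of cell composition in the levels of the 10 genes was not tested.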

How the data were processed

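Polyadenylated liver RNA of 10 libraries (5 GRflox, 5 GRMAC) was made into NEBNext Ultra libraries and read from both ends, as the protocols in the labels state. Deposited by the authors were raw counts per gene, 1 RefSeq transcript per row. HISAT2 2.1.0, DESeq2 1.24.0 and mm10 are named in the submitters' processing notes; the counting program, annotation version and strand setting are not given in the sources used here. Per the file headers, a second table that the authors deposited holds the log2 fold change of each gene and an adjusted p-value; its 10 columns of values per library were not used. Control and knockout columns were matched to samples by genotype and number in the titles.

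Genes were filtered with filterByExpr of edgeR 4.0.16, which left 12558 of 19764 genes with 99.97% of all reads counted. After TMM scaling, the genotypes were compared over all tested genes by the robust quasi-likelihood test of edgeR (R 4.3.3), with Benjamini-Hochberg adjustment and a threshold of 0.05. Each standard error was derived from its fold change and F statistic, and 95% intervals use the moderated degrees of freedom. Levels per kb use the lengths of the GENCODE M21 transcripts matched to the RefSeq IDs of the rows. Correlations used log2 CPM with a prior count of 2. In these libraries 3 counts equal between 0.108 and 0.129 CPM. The fits were tested on simulated data.

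The members and all lists were chosen with earlier results of these data known. Named genes are the 10 members, up to 4 genes past the threshold (or else the lowest p) of each list, and the 3 genes most like each member. Same-numbered libraries had correlations from −0.11 to 0.17, of which 2 of 5 were over 0.1, so numbers were not taken to pair libraries. Alternatives were DESeq2 1.42.0, limma-voom (limma 3.58.1), other scalings and filters, no robust estimation, a replicate block and leaving out each library; the fit without both libraries numbered 4 and a correction for GC content and transcript length were added after the data were seen.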

Additional observations from a re-analysis of the deposited data

How the results depend on the processing

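All 10 members kept a negative log2 fold change under each of the 20 alternative fits, and the median over the members ranged from −0.26 to −0.41. The count of members past the threshold was 0, except that DESeq2 passed 1 (Mgll) at an adjusted p of 0.0445 and dropping both GRflox 4 and GRMAC 4 passed 1 (Plin2); the cause was not tested. With the edgeR settings used in the report it was also 0 at a threshold of 0.1. With the replicate block it was 0 and the median −0.38; the block changed no member's call. When 1 library was left out, the fold change of Cidec ranged from −1.35 to −0.65, that of G0s2 from −0.99 to −0.10 and that of Plin2 from −0.63 to −0.27. The 22 genes called over all tested genes became 425 with DESeq2, 34 without the filter, 8 without robust estimation, 81 with the replicate block, 9 with the correction for GC content and length, 68 without GRflox 4 and GRMAC 4, and 5 to 47 when 1 library was left out. Of the related lists, 1 PPARA target was called lower with the settings used in the report, 10 with DESeq2, 6 without GRflox 4 and GRMAC 4, 2 without the filter or with the replicate block, 0 without robust estimation or with the correction, and 0 to 2 when 1 library was left out. DESeq2 also called 1 other droplet protein and 1 hydrolase lower and 2 hydrolases higher. Leaving out GRMAC 3 called 1 hydrolase higher (Ces3b), and leaving out GRflox 4 and GRMAC 4 called 1 lower (Abhd6, adjusted p = 0.0499). The spread between libraries, not depth, limits the comparison of the varying members.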
